A study of Mus musculus with 6 samples.

Results

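The mitochondrial carriers of the Slc25 family were described in castration-resistant prostate tumours of mice that had received a marrow transplant. Members were the protein-coding genes of GENCODE M21 (GRCm38) whose symbol starts with Slc25a. The annotation holds 47 such genes, of which 45 have a row among the 21718 genes of the count table and 39 are among the 15963 genes that were abundant enough to test. The 2 without a row, Slc25a18 and Slc25a54, were not analysed here.

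The tumours grew in mice of a genetic model of prostate cancer, whose alteration is confined to prostate epithelium and is the same in both groups. At 6 weeks of age all recipients were given 900 rad, then received marrow from F10fl/fl donors, were castrated at 8 weeks, and had tumours resected 16 weeks after castration. In the F10-intact group (samples 1, 3 and 4) the donors had no Cre, so floxed F10 stayed whole. In the F10-deleted group (samples 1, 3 and 4) the donors also carried LysM-Cre, which acts in myeloid cells, so F10, the gene of coagulation factor X, was targeted in marrow-derived myeloid cells and not in the tumour cells or in host cells that outlived the irradiation. Both groups share the tumour model, irradiation, transplant and castration, and the comparison asks what the marrow genotype goes with in the tumour. Whole tumour was sequenced, so fewer cells of a type and less RNA per cell cannot be told apart.

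Mitochondrial carriers are small proteins of the inner membrane that exchange or import metabolites between the cytosol and the matrix. They move ADP against ATP, phosphate, citrate and other organic acids, amino acids, cofactors and iron, and so connect respiration with synthesis in the cytosol. Several have paralogues with the same substrate but another tissue preference or calcium control. Citrate export is a known trait of prostate epithelium, and the heart and muscle form of the ADP/ATP carrier is Slc25a4.

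Promoter windows are shown for the 4 members with the smallest p-values in the comparison below, 2 with lower and 2 with higher values in the F10-deleted tumours. Each runs 5′ to 3′ on the gene's strand from 250 bases before to 50 after the RefSeq start on GRCm38.p6. The window of Slc25a29 is chr12:108835827-108836126 (minus strand), that of Slc25a36 chr9:97110992-97111291 (minus strand), that of Slc25a13 chr6:6217124-6217423 (minus strand) and that of Slc25a24 chr3:109122899-109123198 (plus strand). Capitals mark matches, on either strand, to any of 6 motifs: CCAAT (the CCAAT box), CACGTG (the E-box), TGACGTCA (the cAMP response element), the palindromic core of NRF1 sites, given by name alone, GGGCGG (the GC box) and CCGGAAG (the core of ETS sites). The motifs were chosen with the windows in view, and none of them holds another whole.
Slc25a29: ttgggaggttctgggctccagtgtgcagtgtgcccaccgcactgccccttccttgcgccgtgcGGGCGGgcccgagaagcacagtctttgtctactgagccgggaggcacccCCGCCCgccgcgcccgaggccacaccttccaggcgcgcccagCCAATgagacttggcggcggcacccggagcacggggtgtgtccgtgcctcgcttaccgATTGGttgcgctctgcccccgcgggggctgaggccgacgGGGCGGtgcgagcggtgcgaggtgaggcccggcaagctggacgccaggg
Slc25a36: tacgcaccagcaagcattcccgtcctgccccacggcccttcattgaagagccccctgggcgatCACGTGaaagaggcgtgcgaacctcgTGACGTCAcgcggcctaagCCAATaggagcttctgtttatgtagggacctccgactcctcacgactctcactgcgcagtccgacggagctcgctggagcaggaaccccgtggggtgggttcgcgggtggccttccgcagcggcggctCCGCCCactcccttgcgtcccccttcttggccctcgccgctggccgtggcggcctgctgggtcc
Slc25a13: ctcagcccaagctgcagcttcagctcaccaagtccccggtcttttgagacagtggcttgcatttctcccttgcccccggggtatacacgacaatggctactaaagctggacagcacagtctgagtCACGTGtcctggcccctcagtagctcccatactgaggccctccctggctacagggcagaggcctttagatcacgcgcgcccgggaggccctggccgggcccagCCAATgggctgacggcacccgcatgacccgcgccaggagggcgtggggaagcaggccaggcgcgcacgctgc
Slc25a24: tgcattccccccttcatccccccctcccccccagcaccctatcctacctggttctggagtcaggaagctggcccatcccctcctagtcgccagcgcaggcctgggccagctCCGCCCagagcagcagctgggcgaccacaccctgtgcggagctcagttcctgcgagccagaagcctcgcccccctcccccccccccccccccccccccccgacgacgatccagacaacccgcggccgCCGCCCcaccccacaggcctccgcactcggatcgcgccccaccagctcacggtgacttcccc

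The windows differed in the motifs they hold. Slc25a29 had a CCAAT box on each strand and 3 GC boxes, Slc25a36 had a CCAAT box, an E-box, a cAMP response element and a GC box, Slc25a13 had a CCAAT box and an E-box, and Slc25a24 had 2 GC boxes. Across the 44 windows of the 34 members in the table that matched by symbol, a CCAAT box stood in 50% of windows, against 37.4% of all 32851 windows, an E-box in 18.2% against 7.15%, and a GC box in 86.4% against 35.7%. An ETS core stood in 13.6% against 8.86%, a cAMP response element in 4.55% against 1.79%, and the NRF1 core in 0 of the 44 against 0.971% of all windows. The members' windows were also richer in G and C, with a median of 59.3% against 52.7%, and windows of some genes overlap each other.

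The libraries held 9237308 to 11821588 counts, of which the 45 members took 0.26% to 0.285%. F10 itself was counted 2, 6 and 17 times in the F10-intact tumours and 7, 4 and 9 in the F10-deleted tumours, so its level in whole tumour does not check the labels. F10-intact sample 4 lay apart from the other 5 on the first principal component, which held 49.1% of the variance. Of 10 luminal prostate markers all 10 had a row, with summed levels of 3877 to 6983 CPM (counts relative to library size, TMM-scaled) in the F10-intact group and 2876 to 3067 CPM in the F10-deleted group. Sbp, a secretory protein gene, made up the separation: it stood at 1038 to 3107 CPM against 211 to 460 CPM, and without it the sums of 2791 to 3876 CPM and 2518 to 2793 CPM overlapped. Msmb, another secretory gene, had at most 1 count in any sample. Markers of other cell types also separated the groups: all 14 skeletal muscle markers summed to 21.6 to 157 CPM against 951 to 2328 CPM, and all 6 basal epithelial markers to 806 to 1962 CPM against 2226 to 3670 CPM. None of these lists had a marker at 0 in all 6 samples, and their part in the carrier values below was not tested.

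Summed over the family, the groups differed by less than the spread of the samples. On the TPM scale (counts per base of union exon length, scaled to the same sum in every sample), the 45 members summed to 2337, 2501 and 2719 in the F10-intact tumours and 2566, 2675 and 2467 in the F10-deleted tumours. The means were 2519 ± 191 and 2569 ± 104 TPM (SD, n = 3 each), a ratio of 1.02, and the groups overlapped. Summed as CPM, without length, the ratio was 0.937. Among the 39 tested members, 23 had log2 fold changes (F10-deleted over F10-intact) above 0 and 16 below, with a median of 0.03, where all tested genes had a median of -0.02.

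With edgeR's quasi-likelihood test, 0 of the 39 members passed an adjusted p of 0.05, a call that 7 genes in all, 0.0439% of those tested, received. With the replicate number as a block, 0 members and 2 genes in all (0.0125%) passed, and limma-voom gave the same counts (0.0125%). At an unadjusted p under 0.05 there were 7 of 39 members (17.9%), 2 with higher and 5 with lower values in the F10-deleted group, against 10.9% of all tested genes (6.15% higher and 4.74% lower). With the block and with limma-voom, 9 of the 39 members each had an unadjusted p under 0.05, against 14.4% and 10.5% of all tested genes. The 7 from edgeR were also the members whose groups did not overlap, a share of 17.9% against 16.7% of all tested genes (8.99% higher and 7.67% lower). DESeq2, which called 3.05% of the same genes, called 3 of the 39 members: Slc25a29 lower and Slc25a13 and Slc25a24 higher. For 32 of the 39 members (82.1%) the 95% interval of the log2 fold change lay within 1 unit of 0, which leaves out a 2-fold change in either direction, against 62.7% of all tested genes. Whether the 6 tumours came from 6 animals is not stated in the labels, and the p-values therefore reflect spread among tumour samples, which may be technical.

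**Figure D1:**
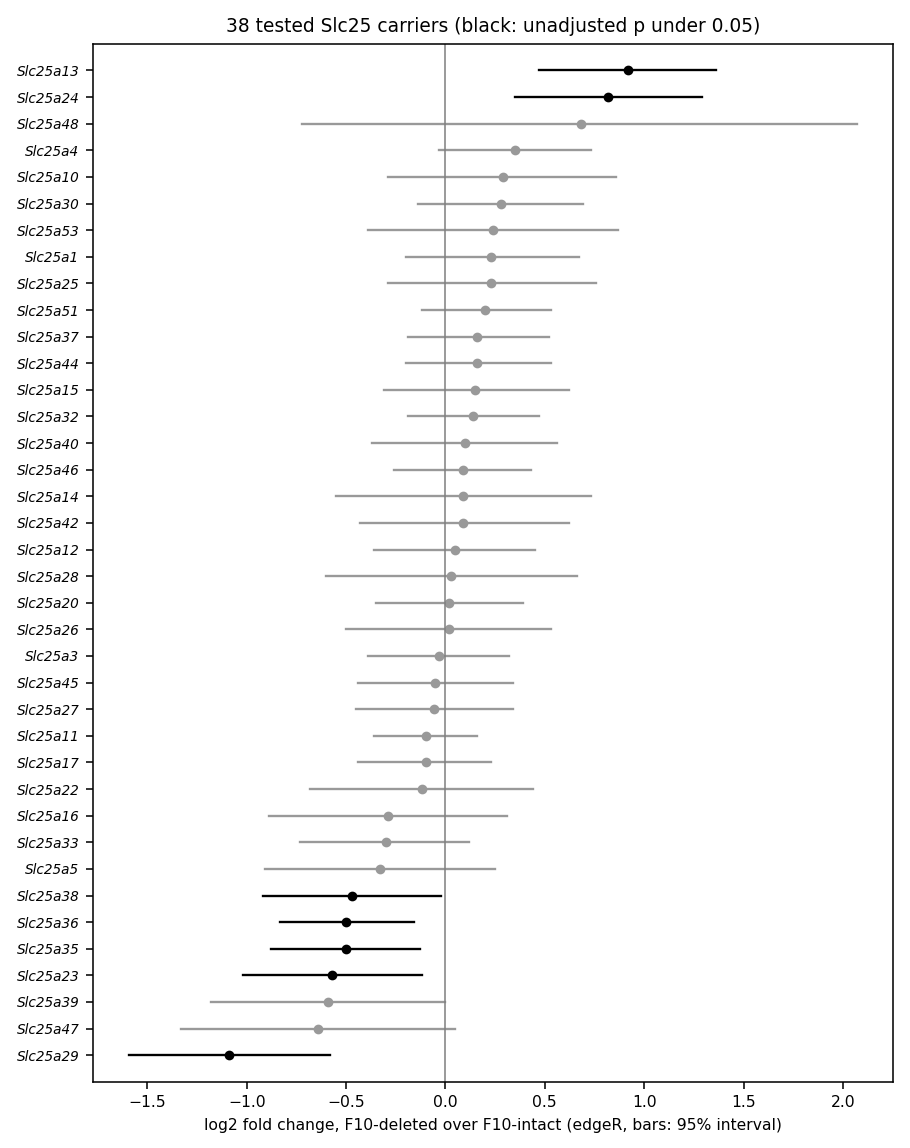
Log2 fold change of 38 of the 39 tested carriers (F10-deleted over F10-intact, horizontal axis) with its 95% interval from edgeR, in order of the estimate. Black marks the 7 members with an unadjusted p under 0.05, from 0.92 for Slc25a13 at the top to -1.09 for Slc25a29 at the bottom.

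The carriers of basic amino acids, ornithine and carnitine and their relatives held the member with the smallest p-value. Slc25a29 (ENSMUSG00000021265, chromosome 12, 108825873 to 108835883, minus strand, GRCm38), which imports arginine, lysine and other basic amino acids, stood at 20.9, 18.7 and 27.9 CPM in F10-intact samples 1, 3 and 4 and at 12.3, 9.22 and 10.3 CPM in F10-deleted samples 1, 3 and 4. Every F10-deleted sample lay below every F10-intact sample. The mean levels of 22.5 ± 4.8 and 10.6 ± 1.55 CPM (SD, n = 3 each) gave a log2 fold change of -1.09 ± 0.22 (SE, 95% interval -1.59 to -0.58, adjusted p from edgeR = 0.122). DESeq2 gave an adjusted p of 0.00297, and over all 13 alternatives, each with a lower value in the F10-deleted group, the adjusted p ran from 0.00297 to 0.406.

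Its neighbour on the chromosome showed values in the same direction. Slc25a47, a carrier best known from liver (ENSMUSG00000048856, chromosome 12, 108836046 to 108856815, plus strand), stood at 10.6, 8.06 and 9.85 CPM in the F10-intact tumours and 8.51, 4.82 and 5.03 CPM in the F10-deleted tumours, so the groups overlapped. The log2 fold change was -0.64 ± 0.30 (SE, adjusted p from edgeR = 0.494). The genes are transcribed away from each other with 162 bases between them, and the Slc25a29 window printed above contains the first bases of 2 non-coding transcripts of Slc25a47, at 108836046 and 108836082. The protein-coding transcripts of Slc25a47 begin at 108851129 and 108851139, and gene totals do not show which transcripts the reads came from. The ratio of Slc25a29 to Slc25a47 in TPM was 2.26, 2.66 and 3.24 in the F10-intact tumours and 1.65, 2.19 and 2.35 in the F10-deleted tumours, so the groups overlapped there as well.

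The other tested members of this group lay closer to 0 or varied more. Slc25a20, the carnitine-acylcarnitine carrier of fatty acid oxidation, had a log2 fold change of 0.02 ± 0.16, and Slc25a15, the ornithine carrier of the urea cycle, 0.15 ± 0.20. Slc25a45 was at -0.05 ± 0.17 (SE, adjusted p from edgeR between 0.843 and 0.98 for the 3 genes). Slc25a48 had the largest spread within groups of any tested member, 1.01 log2 units. It stood at 25.4, 23.2 and 5.08 CPM in the F10-intact tumours and 16.3, 43.9 and 25.8 CPM in the F10-deleted tumours, with sample 4 low in the first group and sample 3 high in the second. The log2 fold change of 0.68 ± 0.59 (SE, adjusted p from edgeR = 0.745) became 0.24 when F10-intact sample 4 was left out and 0.26 when F10-deleted sample 3 was.

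Among the aspartate and glutamate carriers, Slc25a13 had higher values in the F10-deleted tumours while its paralogue Slc25a12 lay near 0. Slc25a13, or citrin (ENSMUSG00000015112, chromosome 6, 6041218 to 6217173, minus strand), exports aspartate for the malate-aspartate shuttle. It stood at 10.3, 11 and 8.19 CPM in the F10-intact tumours and 17.2, 19.1 and 19.4 CPM in the F10-deleted tumours, with a gap between the groups that exceeded the range within either. The means were 9.83 ± 1.46 and 18.6 ± 1.17 CPM (SD, n = 3 each), which gave a log2 fold change of 0.92 ± 0.19 (SE, 95% interval 0.47 to 1.36, adjusted p from edgeR = 0.138). DESeq2 gave an adjusted p of 0.00457, and the 13 alternatives, all with higher values, ranged from 0.00457 to 0.437. Slc25a12, or aralar, which does the same exchange in brain and muscle, was at 39.9 ± 2.43 and 41.3 ± 8.33 CPM (log2 fold change 0.05 ± 0.17, adjusted p from edgeR = 0.954). Slc25a22, a glutamate carrier, was at -0.12 ± 0.24 (SE, adjusted p from edgeR = 0.908).

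Within each sample, the balance of the 2 aspartate carriers can be read without scaling between libraries. The ratio of Slc25a12 to Slc25a13 in TPM was 1.86, 1.94 and 2.61 in the F10-intact tumours and 1.49, 1.11 and 0.882 in the F10-deleted tumours. The groups did not overlap, and the mean ratio was 1.84-fold higher in the F10-intact group. This ratio is one of 7 between related carriers, pairs chosen after their values were seen, so it is a description with no test.

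The calcium-regulated ATP-Mg/phosphate carriers, which adjust the adenine nucleotide pool of the matrix, showed values in opposite directions. Slc25a24 (ENSMUSG00000040322, chromosome 3, 109123149 to 109168457, plus strand) stood at 38.9, 41.7 and 30.8 CPM in the F10-intact tumours and 50.5, 79.5 and 66.1 CPM in the F10-deleted tumours. The groups did not overlap, and the log2 fold change was 0.82 ± 0.20 (SE, 95% interval 0.35 to 1.29, adjusted p from edgeR = 0.201). DESeq2 gave an adjusted p of 0.021, the lowest of a range up to 0.549 over the alternatives. Slc25a23 (ENSMUSG00000046329, chromosome 17, 57043711 to 57059863, minus strand) stood at 94.1, 109 and 154 CPM against 86.7, 77.4 and 76.4 CPM, again without overlap. Its log2 fold change was -0.57 ± 0.19 (SE, 95% interval -1.02 to -0.12, adjusted p from edgeR = 0.332), and -0.35 without F10-intact sample 4, its highest sample.

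The ratio of Slc25a23 to Slc25a24 in TPM was 1.57, 1.70 and 3.24 in the F10-intact tumours and 1.11, 0.631 and 0.749 in the F10-deleted tumours. In TPM, Slc25a23 was thus the more abundant of the pair in all 3 F10-intact samples, and Slc25a24 in F10-deleted samples 3 and 4. That order depends on the exon lengths. In CPM, without length, Slc25a23 was above Slc25a24 in F10-deleted sample 4 (76.4 against 66.1) and just below it in F10-deleted sample 3 (77.4 against 79.5). The mean ratio in the F10-deleted group was 0.383 of that in the F10-intact group, and 0.508 of it without F10-intact sample 4. Slc25a25, the third tested carrier of the group, had a log2 fold change of 0.23 ± 0.22 (SE, adjusted p from edgeR = 0.768). Slc25a41, which lies 2056 bases from Slc25a23 on the same strand, had 0, 1 and 2 counts and 1, 6 and 0 counts and was not tested.

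**Figure D2:**
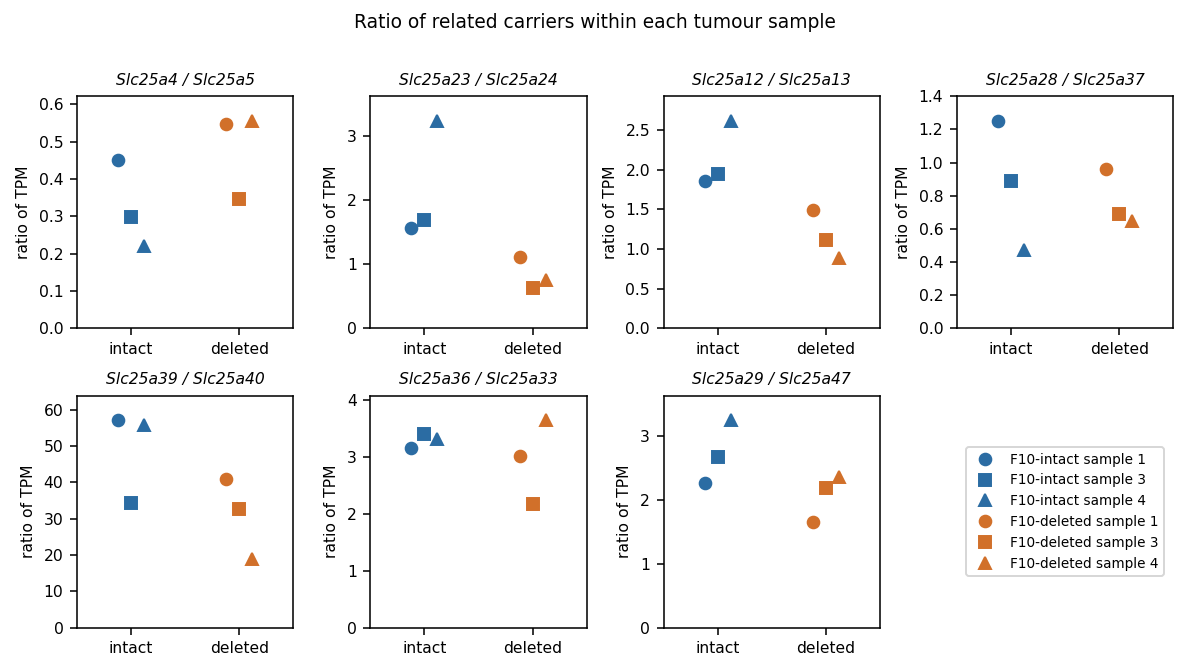
Ratio of length-scaled levels (TPM) of 7 pairs of related carriers in each sample, F10-intact in blue and F10-deleted in orange, with the marker shape giving the sample number. The Slc25a23 to Slc25a24 and Slc25a12 to Slc25a13 ratios do not overlap between the groups, and the other 5 do.

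The ADP/ATP carriers Slc25a5 and Slc25a4 and the phosphate carrier Slc25a3 were the 3 members with the highest mean TPM, and their groups overlapped. Slc25a5, the ADP/ATP carrier of dividing cells, stood at 533, 743 and 990 TPM in the F10-intact tumours and 633, 742 and 620 TPM in the F10-deleted tumours. F10-intact sample 4 was the highest, and the log2 fold change of -0.33 ± 0.25 (SE, adjusted p from edgeR = 0.693) was -0.02 without it. Slc25a5 has processed pseudogene copies in the genome, and reads shared with near-identical copies cannot be assigned with certainty. Slc25a3, which imports phosphate for ATP synthesis, stood at 228, 242 and 266 TPM against 237, 272 and 281 TPM, with a log2 fold change in CPM terms of -0.03 ± 0.15 (SE, adjusted p from edgeR = 0.965) that turned to 0.08 when F10-intact sample 4 was left out and to 0.06 when F10-deleted sample 1 was.

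Slc25a4, the muscle and heart form of the ADP/ATP carrier (chromosome 8, 46206797 to 46211284, minus strand), stood at 189, 168 and 187 CPM in the F10-intact tumours and 257, 182 and 255 CPM in the F10-deleted tumours. Samples 1 and 4 of the F10-deleted group were above all others, and sample 3 lay within the F10-intact range. The log2 fold change was 0.35 ± 0.16 (SE, 95% interval -0.03 to 0.73, adjusted p from edgeR = 0.498). It was 0.53 when F10-deleted sample 3 was left out. Relative to Slc25a5, Slc25a4 stood at 0.451, 0.297 and 0.22 in TPM in the F10-intact tumours and 0.547, 0.346 and 0.555 in the F10-deleted tumours, which overlapped. The 14 skeletal muscle markers summed to 2328, 951 and 2242 CPM in F10-deleted samples 1, 3 and 4 and to 157, 29.7 and 21.6 CPM in the F10-intact tumours, so the F10-deleted sample with the lowest Slc25a4 also had the lowest muscle level of its group. The part of muscle RNA in the Slc25a4 values was not tested. Slc25a31, the testis form, had 6, 8 and 2 counts and 2, 3 and 5 counts and was not tested.

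Carriers of cofactors, nucleotides and glutathione formed the largest role group, with 11 tested members, of which 6 were above 0 and 5 below, at a median of 0.02. Slc25a36 (ENSMUSG00000032449, chromosome 9, 97074961 to 97111157, minus strand), a carrier of pyrimidine nucleotides needed for RNA and DNA synthesis in the matrix, stood at 282, 275 and 312 CPM in the F10-intact tumours and 203, 179 and 234 CPM in the F10-deleted tumours. The groups did not overlap. Its log2 fold change was -0.50 ± 0.14 (SE, 95% interval -0.83 to -0.16, adjusted p from edgeR = 0.265). Slc25a33, another pyrimidine nucleotide carrier, was at -0.30 ± 0.18 (SE, adjusted p from edgeR = 0.608), with values of 17.5, 15.9 and 18.6 CPM against 13.2, 16.2 and 12.6 CPM that overlapped.

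Slc25a39, a glutathione importer, stood at 195, 136 and 194 CPM in the F10-intact tumours and 156, 111 and 82.5 CPM in the F10-deleted tumours. The groups overlapped through F10-intact sample 3 and F10-deleted sample 1, and the log2 fold change was -0.59 ± 0.25 (SE, 95% interval -1.18 to 0.00, adjusted p from edgeR = 0.459). It was -0.39 when F10-deleted sample 4 was left out and -0.82 when F10-deleted sample 1 was. Its paralogue Slc25a40 was at 0.10 ± 0.20 (SE, adjusted p from edgeR = 0.912). In TPM, Slc25a39 exceeded Slc25a40 by 57.0, 34.2 and 55.8 times in the F10-intact tumours and 40.8, 32.5 and 18.9 times in the F10-deleted tumours. Slc25a17, a peroxisomal carrier of cofactors and nucleotides, was at -0.10 ± 0.14 (SE, adjusted p from edgeR = 0.858), and Slc25a51, the NAD carrier, at 0.20 ± 0.14 (SE, adjusted p from edgeR = 0.663). In the same group, Slc25a16, Slc25a26, Slc25a32 and Slc25a42 had log2 fold changes from -0.29 for Slc25a16 to 0.14 for Slc25a32.

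Glycine and branched-chain amino acid import is represented by Slc25a38 and Slc25a44. Slc25a38, which brings glycine to haem synthesis (chromosome 9, 120110374 to 120124504, plus strand), stood at 17.6, 18.9 and 20.7 CPM in the F10-intact tumours and 16.8, 12.4 and 12.1 CPM in the F10-deleted tumours. The groups did not overlap, although F10-deleted sample 1 came close to F10-intact sample 1, and the log2 fold change was -0.47 ± 0.20 (SE, 95% interval -0.92 to -0.02, adjusted p from edgeR = 0.44). Its unadjusted p stayed under 0.05 in 3 of the 13 alternatives. Slc25a44, the branched-chain amino acid carrier, was at 0.16 ± 0.16 (SE, adjusted p from edgeR = 0.769).

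The mitoferrins, which import iron for haem and iron-sulphur clusters, lay near 0. Slc25a37 stood at 71.3, 67.7 and 92.7 CPM against 82.0, 92.3 and 85 CPM, a log2 fold change of 0.16 ± 0.15 (SE, adjusted p from edgeR = 0.763). Slc25a28 stood at 55.6, 37.4 and 27.2 CPM against 48.9, 39.6 and 34.2 CPM, with the widest range inside the F10-intact group. Its log2 fold change of 0.03 ± 0.27 (SE, adjusted p from edgeR = 0.982) was -0.02, -0.19 and -0.09 without F10-intact sample 3, F10-intact sample 4 and F10-deleted sample 1. The ratio of Slc25a28 to Slc25a37 in TPM ran from 0.471 in F10-intact sample 4 to 1.25 in F10-intact sample 1, which spans all F10-deleted samples.

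Carriers of di- and tricarboxylates, which feed citrate, malate and 2-oxoglutarate to the cytosol, showed overlapping groups. Slc25a1, the citrate carrier, stood at 72.3, 64.9 and 48.5 CPM in the F10-intact tumours and 76.0, 81.7 and 60.9 CPM in the F10-deleted tumours, a log2 fold change of 0.23 ± 0.19 (SE, adjusted p from edgeR = 0.718). Slc25a10, the dicarboxylate carrier, was at 0.29 ± 0.25 (SE, adjusted p from edgeR = 0.738). Slc25a11, the 2-oxoglutarate and malate carrier and a partner of the aspartate carriers in the malate-aspartate shuttle, stood at 126 ± 6.23 and 117 ± 1.95 CPM (SD, n = 3 each), and had the smallest spread within groups of any tested member, 0.05 log2 units. Its log2 fold change was -0.10 ± 0.11 (SE, adjusted p from edgeR = 0.808). Slc25a21, a carrier of longer 2-oxo acids, had 12, 6 and 3 counts and 7, 5 and 18 counts and was not tested.

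The members related to uncoupling proteins had log2 fold changes of 0.28 ± 0.18 for Slc25a30, 0.09 ± 0.28 for Slc25a14 and -0.06 ± 0.17 for Slc25a27 (SE, adjusted p from edgeR between 0.636 and 0.942). Slc25a30 stood at 16.0, 19.7 and 16.6 CPM in the F10-intact tumours and 18, 23.3 and 22 CPM in the F10-deleted tumours, and only F10-intact sample 3 and F10-deleted sample 1 crossed. In the group of outer membrane members and members given no substrate here, Slc25a35 (chromosome 11, 68968131 to 68974365, plus strand) stood at 33.8, 29.6 and 40.4 CPM against 25.6, 24.6 and 22.9 CPM, without overlap. Its log2 fold change was -0.50 ± 0.16 (SE, 95% interval -0.88 to -0.13, adjusted p from edgeR = 0.311). Slc25a35 shares 1151 exon bases with Rangrf on the opposite strand, which was at 0.27 ± 0.32 (SE, adjusted p from edgeR = 0.819), and how the counting treated strand is not given in the sources used here. Other members also share exon bases with opposite-strand genes: Slc25a46 383 with B930094E09Rik, Slc25a25 379 with Naif1, Slc25a10 228 with Gm11788, Slc25a11 189 with Rnf167, Slc25a21 189 with Pax9 and Slc25a26 144 with Lrig1. Slc25a46, an outer membrane protein of mitochondrial shape, was at 0.09 ± 0.15 and Slc25a53 at 0.24 ± 0.27 (SE, adjusted p from edgeR = 0.889 and 0.814).

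**Figure D3:**
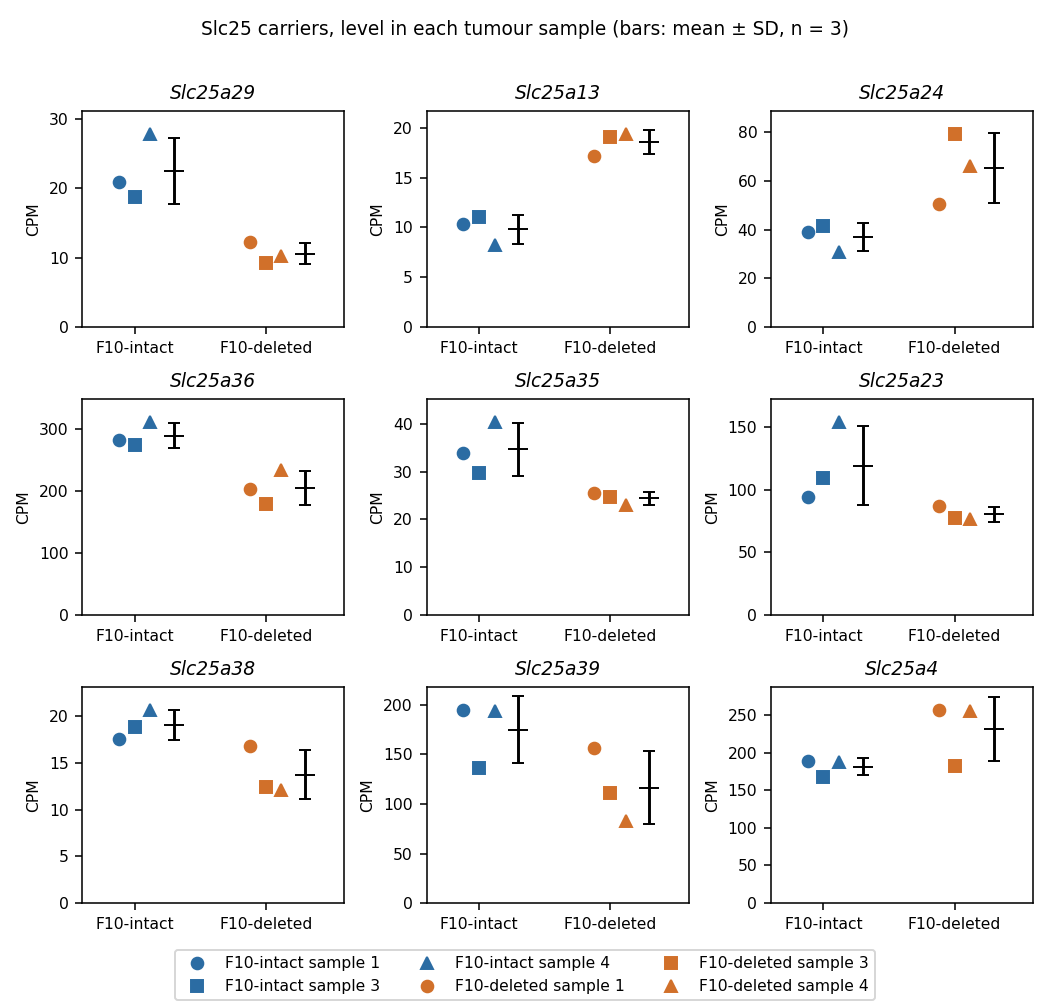
TMM-scaled level (CPM, from 0) of 9 carriers in each sample, F10-intact in blue and F10-deleted in orange, with the mean and SD of each group (n = 3) in black. The first 7 panels show the members whose groups do not overlap, and the last panels show Slc25a39 and Slc25a4, whose groups overlap through 1 or more samples.

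The 6 members below the filter had few counts in both groups. Slc25a43 had 12, 9 and 10 counts in the F10-intact tumours and 2, 6 and 9 in the F10-deleted tumours, and Slc25a2, an ornithine carrier, had 2, 3 and 4 against 2, 4 and 5. Slc25a34 had 5, 1 and 1 counts against 8, 1 and 10. The others were Slc25a21, Slc25a31 and Slc25a41, given above. Counts this low were not tested.

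The order of the members by level was set on the TPM scale, as the mean over all 6 samples. The order depends on the union exon lengths, such as 1646 bases for Slc25a5 and 5550 for Slc25a3. In CPM, without length, Slc25a3 had a higher mean than Slc25a5, 460 against 384. In TPM the order was as follows. Slc25a5 led at 710 ± 158 TPM (SD, n = 6), followed by Slc25a4 at 271 ± 59.1, Slc25a3 at 254 ± 21.6, Slc25a11 at 176 ± 6.73, Slc25a39 at 161 ± 42.9 and Slc25a17 at 106 ± 9.50 TPM. These 6 made up 63.0% to 71.7% of the family's summed TPM in each sample, and Slc25a5 alone 22.8% to 36.4%. A total of 25 members lay between 10 and 100 TPM, 9 between 1 and 10 TPM and 5 under 1 TPM. Most neighbours in this order could not be separated: for 40 of 44 the mean ± SD ranges met. The 4 breaks were below Slc25a5, below Slc25a3, below Slc25a39 and below Slc25a40, the last of these at 4.2 ± 0.562 TPM against 2.22 ± 0.481 TPM for Slc25a53.

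**Figure D4:**
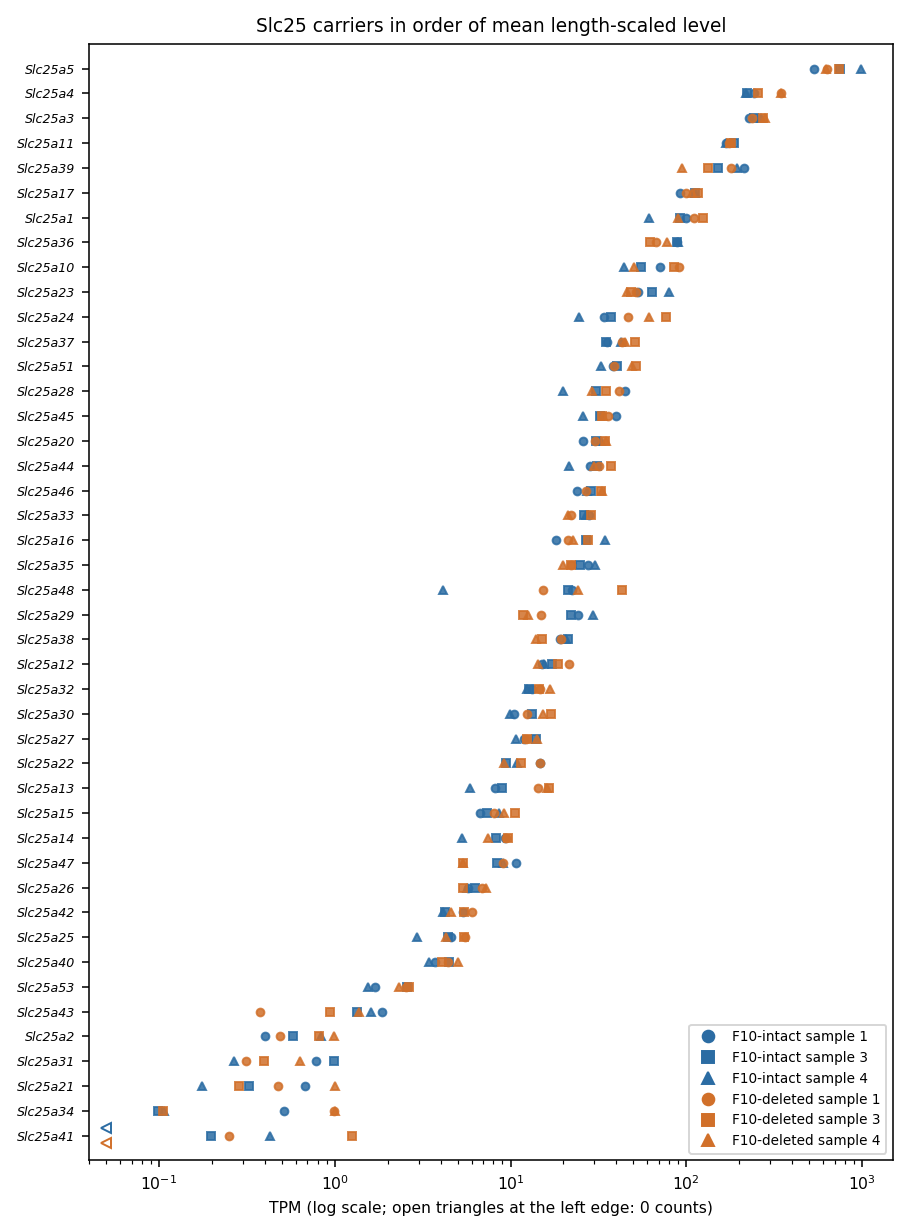
Level of 44 of the 45 carriers in each sample (TPM, log scale), in order of the mean over 6 samples, with F10-intact in blue and F10-deleted in orange. Slc25a5 heads the order with 533 to 990 TPM, and Slc25a41 closes it, with open triangles for the 2 samples at 0 counts.

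Each member has a highest and a lowest sample, and these fell unevenly over the 6 samples, as they did for all tested genes. F10-intact sample 4 held the highest value for 13 of the 39 tested members (33.3%) and the lowest for 11 (28.2%), where over all tested genes it held the highest for 27.0% and the lowest for 27.8%. F10-intact sample 3 was the highest for 2 members (5.13%, against 8.73% of all tested genes). F10-deleted sample 1 was the lowest for 1 member (2.56%, against 12% of all tested genes). The share of counts from mitochondrial DNA was 2.45%, 3.23% and 5.75% in the F10-intact tumours and 3.14%, 3.23% and 4.58% in the F10-deleted tumours, and was thus also highest in F10-intact sample 4. With mitochondrial DNA genes and the 50 most abundant genes left out of the scaling, the members' median log2 fold change was 0.05 and 0 members passed.

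By position, the 47 genes lie on 19 chromosomes, and 4 pairs are direct neighbours among protein-coding genes. Besides Slc25a29 with Slc25a47 and Slc25a23 with Slc25a41, these are Slc25a24 with Slc25a54 on chromosome 3, 6461 bases apart, and Slc25a5 with Slc25a43 on chromosome X, 18448 bases apart. In the pair of Slc25a29 and Slc25a47 both genes passed the filter, with log2 fold changes of -1.09 and -0.64. In the other pairs 1 gene was below the filter or had no row.

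Carriers of the same fold whose symbols fall outside the rule were read beside the members. Ucp2, the uncoupling protein of many tissues, stood at 607, 443 and 489 CPM in the F10-intact tumours and 540, 549 and 462 CPM in the F10-deleted tumours. Ucp3, its skeletal muscle relative, stood at 0.461, 0.686 and 1.97 CPM against 3.26, 1.61 and 2.39 CPM. Its log2 fold change was 1.22 ± 0.58 (SE, adjusted p from edgeR = 0.508), beside the higher muscle markers given above. Within the F10-deleted group, Ucp3 followed the order of the muscle sums (2328, 951 and 2242 CPM). In the F10-intact group the order was opposite, with muscle sums of 157, 29.7 and 21.6 CPM. Ucp1, the uncoupling protein of brown fat, had 2, 3 and 4 counts against 41, 3 and 78. The 13 adipocyte markers all had a row, with Ucp1 among them. They summed to 112, 70.2 and 120 CPM in the F10-intact tumours and 267, 103 and 240 CPM in the F10-deleted tumours. Within the F10-deleted group, Ucp1 and that sum were both lowest in sample 3. Ucp1 is part of the sum, and Lipe alone held 99.4 of the 120 CPM in F10-intact sample 4. None of the 13 was at 0 in all samples, and the part of fat or muscle RNA in Ucp1 and Ucp3 was not tested. Mtch1 and Mtch2, outer membrane relatives, were at 0.16 ± 0.20 and -0.02 ± 0.15 (SE, adjusted p from edgeR = 0.837 and 0.977).

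Other mitochondrial genes gave 0 calls with edgeR in each of 6 further lists, against 0.0439% of all tested genes, and DESeq2 called 3 of their 105 tested genes (2.86%), named below, against 3.05%. At an unadjusted p under 0.05 there were 13 (12.4%), against 10.9% of all tested genes, so both shares lay near the background. For the machinery that inserts carriers into the inner membrane (TOM receptors, small TIM chaperones and the TIM22 complex), 12 of 15 tested genes were below 0 with a median of -0.22, and 2 (13.3%, against 10.9% of all tested genes) had an unadjusted p under 0.05, both with lower values. They were Tomm7, a TOM subunit, at -0.50 ± 0.17 and Timm13, a small chaperone, at -0.76 ± 0.31 (SE, adjusted p from edgeR = 0.347 and 0.438). In all tested genes 47.3% were above 0, and in this list 20.0% were.

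Among matrix enzymes of amino acid and one-carbon metabolism, 11 of 17 were below 0 with a median of -0.20, where 47.3% of all tested genes were above 0. An unadjusted p under 0.05 was found for 5 (29.4%, against 10.9% of all tested genes), of which 4 had lower and 1 higher values. Bcat2, the mitochondrial transaminase of branched-chain amino acids, stood at 77.4, 66.9 and 84.6 CPM in the F10-intact tumours and 54.0, 39.7 and 36.2 CPM in the F10-deleted tumours, and Pycr1, an enzyme of proline synthesis, at 9.51, 7.2 and 8.09 CPM against 4.62, 2.20 and 3.58 CPM. Neither overlapped. Their log2 fold changes were -0.82 ± 0.19 and -1.26 ± 0.33 (SE, adjusted p from edgeR = 0.166 and 0.23), and DESeq2 called both lower (adjusted p = 0.0109 and 0.0356).

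In the TCA cycle and malate-aspartate shuttle, 10 of 21 genes were above 0 with a median of -0.01, and 1 (4.76%, against 10.9% of all tested genes) had an unadjusted p under 0.05, a share below the background. It was Got1, the cytosolic aspartate aminotransferase that receives the aspartate exported by Slc25a12 and Slc25a13. Got1 stood at 20.1, 24.6 and 20.6 CPM in the F10-intact tumours and 35.6, 35.9 and 34.2 CPM in the F10-deleted tumours, without overlap. Its log2 fold change was 0.69 ± 0.14 (SE, adjusted p from edgeR = 0.137), and DESeq2 called it higher (adjusted p = 0.0062). Idh2, the matrix NADP-linked isocitrate dehydrogenase, was at 0.24 ± 0.12 (SE, adjusted p from edgeR = 0.537).

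Other mitochondrial membrane transport had 12 genes above and 12 below 0, and 2 (8.33%, against 10.9% of all tested genes) had an unadjusted p under 0.05. Mcu, the pore of the calcium uniporter, was at 0.57 ± 0.20 and Smdt1, its small regulatory subunit, at -0.45 ± 0.18 (SE, adjusted p from edgeR = 0.339 and 0.419), both without overlap between the groups. Of 14 genes of mitochondrial iron and haem, 7 were above and 7 below 0. An unadjusted p under 0.05 was found for 3 (21.4%, against 10.9% of all tested genes), in both directions. Tfrc, the transferrin receptor, was at 0.41 ± 0.15 and Alas1, the first enzyme of haem synthesis, at 0.44 ± 0.17 (SE, adjusted p from edgeR = 0.364 and 0.401). Ppox had lower values in the F10-deleted group, at -0.31 ± 0.13 (SE, adjusted p from edgeR = 0.44). Of 14 regulators of mitochondrial biogenesis 8 were above 0, 0 had an unadjusted p under 0.05, and the median was 0.05. Gabpa, an ETS-family activator of respiratory genes, was at 0.26 ± 0.14 and Ssbp1, which binds mitochondrial DNA, at -0.32 ± 0.20 (SE, adjusted p from edgeR = 0.569 and 0.626).

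**Figure D5:**
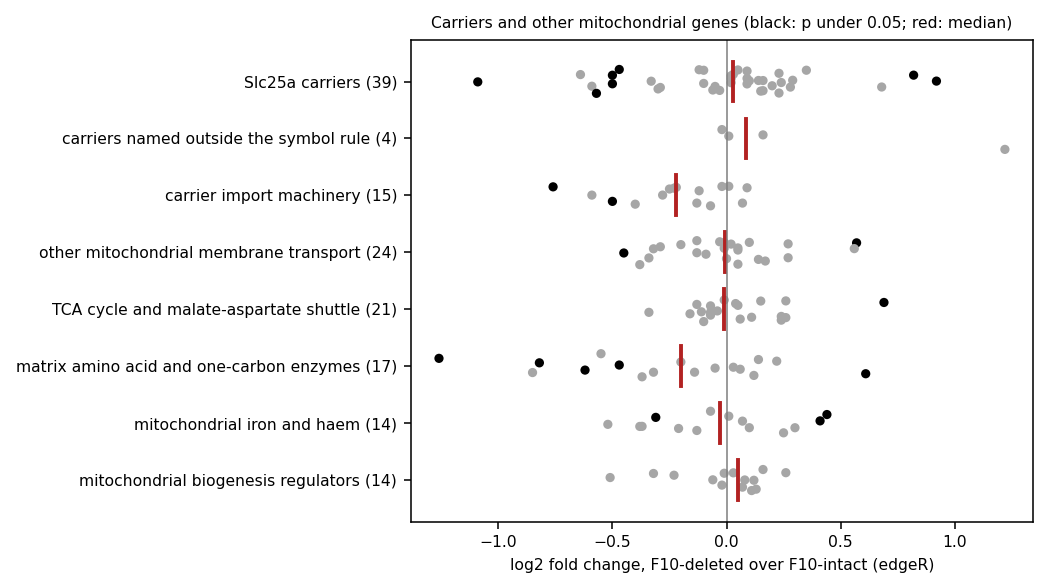
Log2 fold change (F10-deleted over F10-intact, edgeR) of each tested gene of the Slc25a carriers and of 7 other lists, with the number of genes in brackets and the median as a red line. Black points have an unadjusted p under 0.05, and the medians run from -0.22 for the carrier import machinery to 0.09 for the carriers outside the symbol rule.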

How the data were processed

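Per the labels' protocols, poly-A RNA of 6 prostate tumours was sequenced strand-specifically in single-end reads, each 120 bases long. What the authors deposited are raw read counts per Ensembl gene, and the submitters' processing notes name STAR 2.7.10a, the build GRCm38 and DESeq2 without a role. The counter, its handling of strand and the gene annotation are not given in the sources here. GENCODE M21 gave symbols for 21605 identifiers and left 113 without one. Genes were kept by filterByExpr (minimum count 10) and tested with edgeR 4.0.16 in R 4.3.3 (robust quasi-likelihood fit, TMM), with Benjamini-Hochberg adjustment over all tested genes and a threshold of 0.05. TPM was computed from the counts and union exon lengths. Spread within groups is the SD of log2(CPM + 0.5). Alternatives used DESeq2 1.42.0, limma-voom (limma 3.58.1), other scaling and filters, the replicate block and samples left out. The fits were tested on simulated data.

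Members and lists were chosen with earlier results of these data known. Members described in full were the 12 with the smallest p, the 6 with the highest TPM, the 3 with the largest spread within groups and the smallest p of each role group. Of other lists, the 2 genes with the smallest p are named, besides Ppox, Ucp1, Ucp2 and the relatives outside the rule. Both groups carry the numbers 1, 3 and 4. Deviations from the group mean correlated across genes at 0.35, 0.135 and 0.181 for same-numbered samples and at -0.247 to 0.0682 for the others. Deviations within a group depend on each other, so these values do not establish a pairing. The block was run as an alternative. Within each group, all pairs of samples differed by more than sampling noise (chi-square per degree of freedom of 22.3 to 77.5). Promoter windows are from RefSeq, and protein sequences were not analysed here. The values of 1 member and the name of the tumour model are not reported here, though counts and sums over the family include that member.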

Additional observations from a re-analysis of the deposited data

How the results depend on the processing

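For the 39 tested members, 0 passed with edgeR under each scaling, filter, replicate block and left-out sample tried, and 0 with limma-voom, while DESeq2 called 3. Over all genes the count of 7 became 487 with DESeq2, 2 with limma-voom, 2 with a 1 CPM filter (reached by 3 or more samples) and 2 with the replicate block, which changed no call among the members. With 1 sample left out it ran from 0 (lacking F10-intact sample 3 or F10-deleted sample 4) over 1 (F10-deleted sample 1), 5 (F10-intact sample 4) and 18 (F10-deleted sample 3) to 72 (F10-intact sample 1). The 7 members whose groups did not overlap became 10 to 13 with 1 sample left out, where fewer samples make separation easier: 25.6% to 33.3% of members, against 21.3% to 30.8% of all tested genes. The median log2 fold change of the members ran from 0.01 to 0.09 with 1 sample left out, and the ratio of the summed level from 0.984 to 1.06. Among the 20 members described in full, 18 kept their direction in all 13 alternatives. Of the 7 with an unadjusted p under 0.05, Slc25a29, Slc25a13, Slc25a24 and Slc25a35 stayed under it in 13 of the 13, Slc25a36 in 12, Slc25a23 in 11 and Slc25a38 in 3. Signs turned with 1 sample left out for 12 of the 39 tested members (30.8%, against 40.8% of all tested genes), whose log2 fold changes over all samples were at most 0.29 in size. Of those described in full they turned for Slc25a3 (-0.09 to 0.08 with 1 sample left out, and 0.06 when it was F10-deleted sample 1) and Slc25a28 (-0.19 to 0.37, with -0.02 and -0.19 lacking F10-intact sample 3 or 4 and -0.09 lacking F10-deleted sample 1), and the cause was not tested. The 6 members under the filter had at most 18 counts in a sample, which limits what can be seen in them.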
